A study of Mus musculus with 7 samples.

Results

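Collagen genes were examined in the H3K4me1 chromatin maps of single mouse zygotes. The 42 members were chosen by name, as the autosomal protein-coding genes of RefSeq GRCm38 whose symbol is Col, a number, the letter a and a number, out of 20665 autosomal protein-coding genes. The fragments behind every value were selected on 1 measured quantity, the depth of a library, with at least 5000 fragments required: the shallowest library kept, 5-11, held 7106 fragments and the deepest one left out, 4-1, held 672. The collagen genes were singled out for study with earlier results of these data known, so that their levels are a description.

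The study combined OneCell CUT&Tag, in which an antibody directs a transposase to a histone mark inside 1 cell, with the transcriptome of the same zygote. Its 7 samples comprise 2 batches for H3K27me3, 2 for H3K4me1, and 3 RNA samples, and each H3K4me1 batch holds the zygotes of 1 mouse. Ovulation was induced with pregnant mare serum gonadotropin (5 IU), followed after 46 to 48 h by human chorionic gonadotropin (5 IU). The labels put the collection at 23 after this last injection and print no unit for that time. The zygotes, stripped of cumulus cells and of the zona pellucida, had no other treatment. Neither strain nor age is given for the H3K4me1 zygotes. Both H3K4me1 batches share 1 fragment table and no label ties a library to a batch, so the pool is 1 sample: no test between samples, no p-value and no standard deviation is given. The H3K27me3 and RNA samples were not analysed here.

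Of 16 libraries, 14 were kept, with 7106 to 197312 fragments each (median 96240) and 1404305 in all. Library names carry a number 4 or 5 and a cell number, as in 5-4, and 3 of the kept libraries are named 4 and 11 are named 5. A level is the number of fragments per bp in the gene with 2.5 kb on each side, divided by the autosomal mean of 5.62 fragments per 10 kb. Each level stands with its exact 95% Poisson interval, which covers counting error only. A gene is called above or below the mean when its whole interval lies above or below 1. Values by library are given for the 13 libraries with at least 20000 fragments, as the lowest, the median and the highest. As a check of the label zygote, 6 of 10 oocyte and zygote genes were above the mean and none below, with a summed level of 1.82 (1.58 to 2.10). Of 10 cumulus and granulosa genes, 3 were above and 1 below, with a summed level of 0.957 (0.842 to 1.08), and of 10 fibroblast genes 3 were above and 1 below, at 1.32 (1.20 to 1.45). By the shares called among genes of similar length and local gene density, 2.73, 2.14 and 2.86 genes of these lists would be above. The cumulus and fibroblast counts thus lay near the ordinary share. The 2.73 leaves out the X-linked Bmp15, for which no such share was made. Bmp15 stood at 1.22 (0.527 to 2.40) against the autosomal mean and is not among the 6. By library the summed levels of the 3 lists ran from 0.974 to 2.73, from 0.274 to 1.36 and from 0.726 to 1.99 respectively. No marker gene was at 0 fragments. Marker genes at H3K4me1 do not measure how many cells of a type were present, and the part of other cells in the collagen levels was not tested.

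Collagens are extracellular proteins whose chains wind into a triple helix. Fibrillar collagens (types I, II, III, V, XI, XXIV and XXVII) form the fibres of bone, skin, tendon and cartilage. Network collagens (IV, VIII and X) form sheets such as basement membranes, and the remaining types decorate fibrils, anchor epithelia, span cell membranes or carry growth-regulating ends. H3K4me1, the monomethylated lysine 4 of histone H3, is known from somatic cells as a mark of enhancers and of the surroundings of active promoters, and in early embryos the mark is also spread broadly over the genome.

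Promoters are shown for 5 members whose whole gene windows, not their promoters, carry contrasts described below. Each is printed 5′ to 3′ on the strand of its gene from RefSeq GRCm38.p6, over 300 bases from 250 before to 50 after the listed start. RefSeq promoters were matched for 33 of the 42 genes. For the fibrillar genes Col5a1 (highest level), Col11a1 (lowest) and Col3a1 (next lowest), capitals mark each CG.
Col5a1 promoter, chr2:27886175-27886474, plus strand: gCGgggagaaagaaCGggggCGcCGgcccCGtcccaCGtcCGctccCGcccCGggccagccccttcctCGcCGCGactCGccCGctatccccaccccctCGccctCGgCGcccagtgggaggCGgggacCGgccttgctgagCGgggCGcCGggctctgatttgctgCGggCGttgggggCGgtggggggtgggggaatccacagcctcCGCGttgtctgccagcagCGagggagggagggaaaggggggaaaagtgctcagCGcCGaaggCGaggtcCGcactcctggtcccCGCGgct
Col11a1 promoter, chr3:114030290-114030589, plus strand: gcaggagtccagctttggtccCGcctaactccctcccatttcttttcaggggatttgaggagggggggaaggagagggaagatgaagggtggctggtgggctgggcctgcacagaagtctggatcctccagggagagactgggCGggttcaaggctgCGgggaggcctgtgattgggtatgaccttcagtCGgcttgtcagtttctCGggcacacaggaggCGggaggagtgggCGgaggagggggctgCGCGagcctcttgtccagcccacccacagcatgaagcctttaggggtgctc
Col3a1 promoter, chr1:45311288-45311587, plus strand: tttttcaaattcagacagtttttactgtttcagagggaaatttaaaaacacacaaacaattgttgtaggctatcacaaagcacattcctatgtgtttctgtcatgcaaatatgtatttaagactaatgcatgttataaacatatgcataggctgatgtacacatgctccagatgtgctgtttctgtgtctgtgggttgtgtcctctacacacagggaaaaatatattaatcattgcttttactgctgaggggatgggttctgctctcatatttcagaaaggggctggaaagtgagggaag
The network genes Col4a1 and Col4a2 face away from each other, and capitals mark the 78 bases that lie in both of their promoter windows.
Col4a1 promoter, chr8:11312777-11313076, minus strand: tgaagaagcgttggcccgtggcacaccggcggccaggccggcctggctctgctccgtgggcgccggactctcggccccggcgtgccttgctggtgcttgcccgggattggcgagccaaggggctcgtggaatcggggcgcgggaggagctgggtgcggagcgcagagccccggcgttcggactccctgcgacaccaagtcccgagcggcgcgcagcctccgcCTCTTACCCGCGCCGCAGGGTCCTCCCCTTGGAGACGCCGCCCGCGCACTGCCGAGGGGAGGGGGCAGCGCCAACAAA
Col4a2 promoter, chr8:11312555-11312854, plus strand: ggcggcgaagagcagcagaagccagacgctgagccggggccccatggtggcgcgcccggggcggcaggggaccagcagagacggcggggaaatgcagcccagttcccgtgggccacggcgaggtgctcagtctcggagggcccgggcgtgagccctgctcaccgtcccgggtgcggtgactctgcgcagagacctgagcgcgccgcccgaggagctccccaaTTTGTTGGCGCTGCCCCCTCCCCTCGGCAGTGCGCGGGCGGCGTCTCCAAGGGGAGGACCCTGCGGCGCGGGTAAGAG
The Col5a1 promoter holds 34 CG, that of Col11a1 holds 9 and that of Col3a1 holds 0, while Col4a1 and Col4a2 hold 37 and 33. Over the 33 promoters the median was 12 CG, beside 14 over the 16424 promoters of the other autosomal protein-coding genes. The order of the 3 fibrillar genes does not hold for all members: Col6a2 holds 6 CG at a level of 2.33 and Col25a1 holds 23 at 1.03. Over the 33 genes the Spearman rho of level and CG was 0.363.

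H3K4me1 over collagen genes was above the autosomal mean as a set, and the genes differed widely among themselves. The 42 windows held 3858 fragments, a summed level of 1.34 (1.30 to 1.38), beside 1.17 over all other autosomal protein-coding genes. The median gene stood at 1.49, beside 1.21 over the others, and the levels ran from 0.528 for Col11a1 to 2.57 for Col5a1. The summed level was above 1 in 13 of 13 libraries and above the sum over the other genes in 12 of 13, with 1.02 in library 5-5, a median of 1.36 and 1.49 in library 5-3.

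By interval, 24 collagen genes (57.1%) were above the mean, 5 (11.9%) below it and 13 neither. Over all 20665 genes, 29.5% were above and 7.17% below. Collagen genes are long, with a median of 110 kb against 17.4 kb for the other genes, and a long gene collects more fragments and so reaches a call more easily. Each gene was therefore set beside like genes, which are all other autosomal protein-coding genes in the same of 10 groups of length and the same of 5 groups of local gene density. With the shares called among like genes, 17.2 members would be above and 5.69 below, beside the 24 and 5 counted. The level over the median of like genes had a median of 1.17, and 29 of 42 members exceeded that median. Against the level of the median gene in place of the mean, 16 members were above and 10 below, beside 17.8% and 14.6% of all genes. Shares of like genes were not made for this reference, so that the greater length of the members is not allowed for there.

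**Figure D1:**
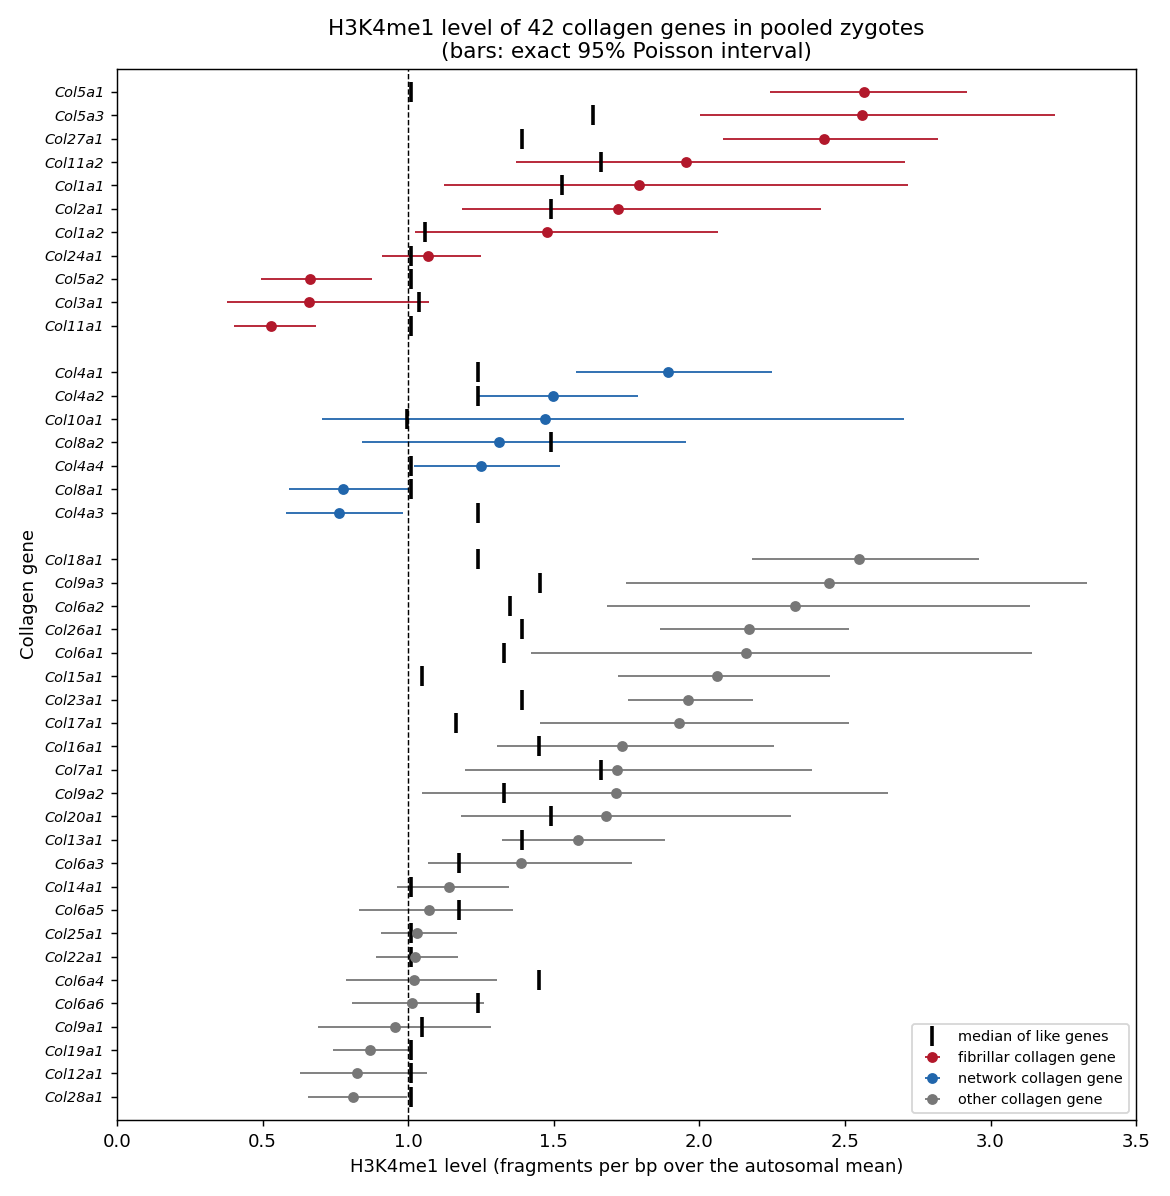
H3K4me1 level of each collagen gene (points, x axis, fragments per bp over the autosomal mean) with its exact 95% Poisson interval, by class (colours) and ordered by level. The vertical ticks are the median level of like genes and the dashed line is the autosomal mean; within the fibrillar class the points run from 0.528 (Col11a1) to 2.57 (Col5a1).

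Fibrillar collagen genes had the highest sum of the 3 classes and spanned the full range of the family. Their 11 windows held 880 fragments, a summed level of 1.42 (1.33 to 1.52) and a median of 1.72. In this class 7 genes were above the mean, 2 were below and 2 neither, beside 4.37 above and 1.62 below by the shares of like genes. Over libraries the class ran from 1.15 in 4-4 through a median of 1.37 to 1.87 in 5-3, above 1 in 13 of 13 and above the other genes of the genome in 12 of 13.

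Among the genes of type V, a minor fibrillar collagen that starts the assembly of type I fibrils, Col5a1 and Col5a3 were the highest of the class and Col5a2 lay near its bottom. Col5a1 (chr2:27886381-28039510) had 228 fragments and a level of 2.57 (2.24 to 2.92), with libraries at 1.58, 2.58 and 3.56, so that 13 of 13 libraries were above 1. Col5a3 (chr9:20770050-20815117) had 72 fragments and a level of 2.56 (2.00 to 3.22), with libraries at 1.11, 2.44 and 4.73. Col5a2 (chr1:45374331-45503282) had 50 fragments and a level of 0.664 (0.493 to 0.876). Its libraries ran from 0, in a library where 3 fragments would have given 0.689, through 0.559 to 1.74. The Col5a1 level was 3.86 times that of Col5a2 (2.83 to 5.36) and higher in 13 of 13 libraries. For Col5a3 over Col5a2 the ratio was 3.85 (2.65 to 5.64), in 12 of 13. The surroundings of the 3 genes differ: 6 other protein-coding genes lay within 500 kb of Col5a1, 33 of Col5a3 and 3 of Col5a2. Over the median of like genes Col5a1 stood at 2.54, Col5a3 at 1.56 and Col5a2 at 0.657. The pairs of type V genes, like all pairs of genes compared here, were picked after their values were seen, and their ratios are descriptions.

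Type XI collagen, which sets the diameter of cartilage fibrils, showed a like split. Col11a2 stood at 1.95 (1.37 to 2.71) from 36 fragments, and Col11a1 (chr3:114030479-114220756), the lowest collagen gene, at 0.528 (0.401 to 0.683) from 58. Libraries of Col11a1 ran from 0.182 through 0.491 to 1.43, with 1 of 13 above 1. The ratio of Col11a2 to Col11a1 was 3.70 (2.37 to 5.70), and Col11a2 was the higher in 10 of 13 libraries. The 2 genes lie in different surroundings. Counted from gene centre to gene centre, 0 other protein-coding genes lay within 500 kb of Col11a1 and 46 within 500 kb of Col11a2.

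Type I collagen, the main collagen of bone, skin and tendon, had its 2 genes above the mean, Col1a1 at 1.79 (1.12 to 2.72) and Col1a2 at 1.48 (1.02 to 2.07). Their ratio was 1.21 (0.676 to 2.14), an interval that includes 1. Neither call held in all 14 pools that left out 1 library: Col1a1 was no longer above without 4-5 or without 5-10, and Col1a2 without 4-2, 5-2, 5-5 or 5-10. Col2a1, the main chain of cartilage, stood at 1.72 (1.18 to 2.42) and was no longer above without 4-4. Col27a1 (chr4:63214009-63334991), a cartilage collagen, had 172 fragments and a level of 2.43 (2.08 to 2.82), with libraries at 0.488, 2.13 and 4.64, of which 12 of 13 were above 1. Col24a1 stood at 1.07 (0.910 to 1.25).

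Col3a1 (chr1:45311538-45349706), the type III gene of vessels and skin, had 16 fragments and a level of 0.659 (0.377 to 1.07), neither above nor below. It had 0 fragments in 7 of 13 libraries, where 3 fragments would have given 1.63 to 4.05, and 4.33 in the highest library. Without 4-2 or without 5-8 its interval lay below 1. Col3a1 neighbours Col5a2 on chromosome 1, and the 24.6 kb between them stood at 1.30 (0.771 to 2.06). The intervals of Col3a1 and of this stretch overlap, and both include the mean.

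Network collagen genes were the lowest of the 3 classes by sum, although all 3 class sums were above 1. Their 7 windows held 500 fragments, a summed level of 1.23 (1.12 to 1.34) and a median of 1.31, with 3 genes above, 2 below and 2 neither, beside 2.80 above and 0.943 below by the shares of like genes. By the level over the median of like genes the order was another. The class medians of this ratio were 1.21 for network, 1.18 for fibrillar and 1.14 for other collagen genes. The ratio exceeded 1 in 4 of 7, 8 of 11 and 17 of 24 members respectively. The sum over the fibrillar genes was 1.16 times that over the network genes (1.04 to 1.30) and higher in 9 of 13 libraries. In libraries named 4, however, the network genes stood at 1.53 (1.26 to 1.84) and the fibrillar genes at 1.37 (1.16 to 1.61), the opposite order with overlapping intervals. Libraries named 5 gave 1.16 (1.05 to 1.28) and 1.43 (1.33 to 1.54). The network class, which has the fewest fragments, also varied most between libraries, from 0.662 in 5-8 through 1.19 to 1.78 in 4-5, above 1 in 9 of 13 and above the other genes of the genome in 7 of 13. Its interval in the pool includes the 1.17 of those other genes. The intervals of fibrillar over other (1.07, 0.986 to 1.15) and network over other (0.920, 0.834 to 1.01) both include 1.

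**Figure D2:**
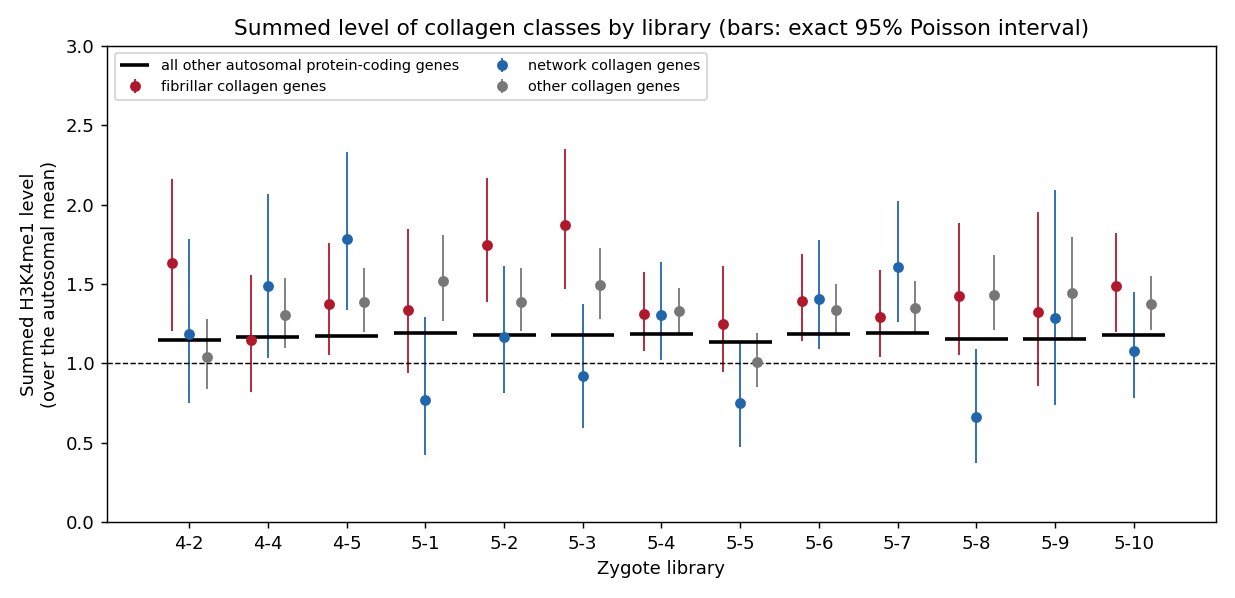
Summed H3K4me1 level of the 3 collagen classes (points, y axis, over the autosomal mean of the library) in each of the 13 libraries with at least 20000 fragments (x axis), with exact 95% Poisson intervals; black bars are all other autosomal protein-coding genes. The fibrillar points lie above 1 in 13 of 13 libraries, and the network points spread from 0.662 to 1.78.

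Col4a1 and Col4a2 encode the chains of the type IV network found in nearly all basement membranes, among them those of the early embryo. Col4a1 (chr8:11198423-11312889) had 127 fragments and a level of 1.89 (1.58 to 2.25), with libraries at 1.00, 1.87 and 4.89. Col4a2 (chr8:11312805-11449287) had 119 fragments and a level of 1.50 (1.24 to 1.79), with libraries at 0.529, 1.25 and 3.10. Both were above the mean in each of the 14 pools that left out 1 library, and their ratio of 1.26 (0.976 to 1.64) had an interval that includes 1. The genes share a bidirectional promoter, printed above, with listed starts 21 bp apart. In the 2022 bp within 1 kb of either start there were 0 fragments, where 3 would have given a level of 2.64. In the 5085 bp that both windows share there were also 0, where 3 would have given 1.05. The 127 and 119 fragments of this pair thus all lay outside the stretch around their starts.

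Col4a3 and Col4a4, a second head-to-head pair whose chains build the basement membrane of the kidney filter, stood apart from each other. Col4a4 (chr1:82448419-82587034) had 101 fragments and a level of 1.25 (1.02 to 1.52), with libraries at 0.165, 1.07 and 2.36. Col4a3 (chr1:82586921-82722059) had 60 fragments and a level of 0.762 (0.581 to 0.981), with libraries at 0.127, 0.737 and 1.66. Col4a4 was 1.64 times Col4a3 (1.18 to 2.30) and higher in 8 of 13 libraries, and their shared window of 5114 bp held 5 fragments counted in both. In libraries named 4 the levels were 1.25 and 1.14, and in libraries named 5 they were 1.25 and 0.680. Each call rests on few fragments: Col4a4 was no longer above without 4-5, 5-2, 5-6 or 5-7, and Col4a3 no longer below without 5-2, 5-3, 5-5, 5-6 or 5-10. The remaining head-to-head pair, Col4a5 and Col4a6, lies on the X chromosome and so outside the 42. Col4a6 stood at 1.26 (1.10 to 1.44) and Col4a5 at 0.626 (0.494 to 0.782) against the autosomal mean, beside a median of 0.683 over X-linked genes. The X chromosome as a whole stood at 0.554, and Col4a6 was 2.28 and Col4a5 1.13 times that level.

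Types VIII and X, short-chain network collagens of the cornea and vessels and of growth-plate cartilage, were measured with few fragments. Col10a1 (chr10:34389981-34397085), at 7.11 kb the shortest member, had 10 fragments and a level of 1.47 (0.705 to 2.70). It had 0 fragments in 7 of 13 libraries, where 3 would have given 3.17 to 14.4, and 5.81 in the highest. Col8a2 stood at 1.31 (0.841 to 1.95). Col8a1 (chr16:57624256-57754737) had 59 fragments and a level of 0.775 (0.590 to 0.999), with libraries at 0.173, 0.708 and 1.93. Its call below the mean held in 4 of the 14 pools that left out 1 library, and was lost without 4-4, 5-1, 5-2, 5-3, 5-4, 5-7, 5-8, 5-9, 5-10 or 5-11.

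The 24 other collagen genes held 2478 fragments, a summed level of 1.33 (1.28 to 1.39) and a median of 1.63, with 14 above, 1 below and 9 neither. The shares of like genes give 9.99 above and 3.13 below. Over libraries the sum ran from 1.01 in 5-5 through 1.37 to 1.52 in 5-1, above 1 in 13 of 13. Within this class the multiplexins were the highest subgroup with more than 1 gene and the fibril-associated collagens the lowest.

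Multiplexins are basement membrane proteoglycans whose ends release anti-angiogenic fragments such as endostatin. Col18a1 (chr10:77052178-77166530), the endostatin gene, had 171 fragments and a level of 2.55 (2.18 to 2.96), with libraries at 1.61, 2.47 and 4.09. Col15a1 stood at 2.06 (1.72 to 2.45). Together the 2 genes gave 2.31 (2.06 to 2.59), and both stayed above the mean in each pool that left out 1 library.

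Transmembrane collagens sit in the cell membrane with their helix outside. Of these 4 genes, Col23a1 stood at 1.96 (1.76 to 2.19) from 330 fragments, Col17a1, a part of the hemidesmosomes of skin, at 1.93 (1.45 to 2.51), and Col13a1, found at neuromuscular junctions, at 1.58 (1.32 to 1.88). Col25a1, at 420 kb the longest member, stood at 1.03 (0.906 to 1.17). It is singled out among 42 genes because its intervals in libraries named 4 (0.493, 0.305 to 0.754) and named 5 (1.15, 1.00 to 1.31) did not overlap. A gene of this length, here with 246 fragments, has narrow intervals that part more easily. How often such intervals part over all autosomal genes was not counted. Over the 42 genes the levels of both sets of libraries had a Spearman rho of 0.561 and a Pearson r of 0.554, as a description over genes that share libraries and vary in length.

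Type VI collagen forms beaded filaments around cells, and in the pool its genes on chromosomes 1 and 10 were higher than those of its cluster on chromosome 9. Col6a2 (chr10:76595756-76623630) had 43 fragments and a level of 2.33 (1.68 to 3.13). Its libraries ran from 0 in 2 libraries, where 3 fragments would have given 2.81 and 2.92, through 1.79 to 4.38. Col6a1, 85.2 kb away on chromosome 10, stood at 2.16 (1.42 to 3.14), and the stretch between them at 1.86 (1.49 to 2.29). Col6a3 on chromosome 1 stood at 1.39 (1.07 to 1.77), a call lost without 5-4, 5-6 or 5-7. The cluster of Col6a4, Col6a5 and Col6a6 on chromosome 9 stood at 1.02 (0.786 to 1.30), 1.07 (0.829 to 1.36) and 1.01 (0.807 to 1.26). The sum over Col6a1, Col6a2 and Col6a3 (1.74) was 1.68 times that over the cluster (1.34 to 2.10), and higher in 9 of 13 libraries. In libraries named 4 no such difference was seen, with 0.799 (0.399 to 1.43) from 11 fragments and 0.789 (0.528 to 1.13) from 29. Libraries named 5 gave 1.94 (1.61 to 2.31) and 1.09 (0.935 to 1.25).

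Fibril-associated collagens with interrupted helices, 9 genes, decorate the surface of fibrils and had a summed level of 1.07 (1.00 to 1.15), with 4 above and 0 below, beside 3.22 and 1.49 by the shares of like genes. Col9a3 (chr2:180598102-180622192), a cartilage gene, had 40 fragments and a level of 2.45 (1.75 to 3.33). Its libraries ran from 0 in 2 of 13, where 3 fragments would have given 2.87 and 6.01, through 2.20 to 8.21. Col16a1 stood at 1.73 (1.31 to 2.26), Col20a1 at 1.68 (1.18 to 2.31) and Col9a2 at 1.71 (1.05 to 2.65), the last lost without 5-1, 5-2, 5-4, 5-6 or 5-8. The other 5 genes were the lower ones of the subgroup. Col14a1 stood at 1.14 (0.960 to 1.35) and was above without 5-10, and Col22a1, found at tissue junctions, stood at 1.02 (0.888 to 1.17). Col12a1 (chr9:79598987-79721141), a gene of tendon and ligament, had 59 fragments and a level of 0.826 (0.628 to 1.06), with libraries at 0.184, 0.917 and 1.57.

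Col9a1 and Col19a1 lie 4.94 kb apart on chromosome 1, and the 56 bp that their windows share held 0 fragments. Col19a1 (chr1:24257683-24587922) had 164 fragments and a level of 0.870 (0.742 to 1.01), with libraries at 0.335, 0.839 and 2.04, and was below without 4-5. Col9a1 (chr1:24177589-24252738) had 43 fragments and a level of 0.955 (0.691 to 1.29), with libraries from 0 in 2, where 3 fragments would have given 1.40 and 1.49, through 0.877 to 2.39. The 3 genes of type IX, which belong to 1 protein, thus lay on both sides of the list: Col9a3 and Col9a2 above the mean and Col9a1 neither. Of the last genes, Col7a1, the gene of the anchoring fibrils of skin, stood at 1.72 (1.20 to 2.39), a call lost without 5-4, and Col26a1 at 2.17 (1.87 to 2.51). Col28a1 (chr6:7997100-8193709), the only gene of this class below the mean, had 92 fragments and a level of 0.812 (0.655 to 0.996), with libraries at 0.235, 0.790 and 1.85. It was no longer below without 4-2, 4-5, 5-1, 5-2, 5-3, 5-4, 5-5 or 5-7. In all, 17 of the 24 genes above the mean and 2 of the 5 below it (Col11a1 and Col5a2) kept their call in each of the 14 pools that left out 1 library.

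Collagen genes were on the whole higher than the sequence beside them, and followed it. The gene body over the level of the 100 kb on each side had a median of 1.18 and exceeded 1 in 30 of 42 genes (71.4%). Over the other genes of the genome this share was 51.6%, and by the shares of like genes 23.1 of 42 would exceed 1. Across the 42 genes the level and the flank level had a Spearman rho of 0.825 and a Pearson r of 0.813, beside 0.624 and 0.595 over the other genes. Both measures come from the same pool and adjoining sequence. Col17a1 stood out most from its surroundings, with a body 2.05 times its flanks, which were at 0.987. Col4a3, at 0.686 times its flanks, was the lowest in this respect, and Col16a1, at 0.784, lay in the highest flanks of all members (2.12). Col11a1 lay in flanks of 0.516, close to its own level, and Col5a1 in flanks of 1.90.

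**Figure D3:**
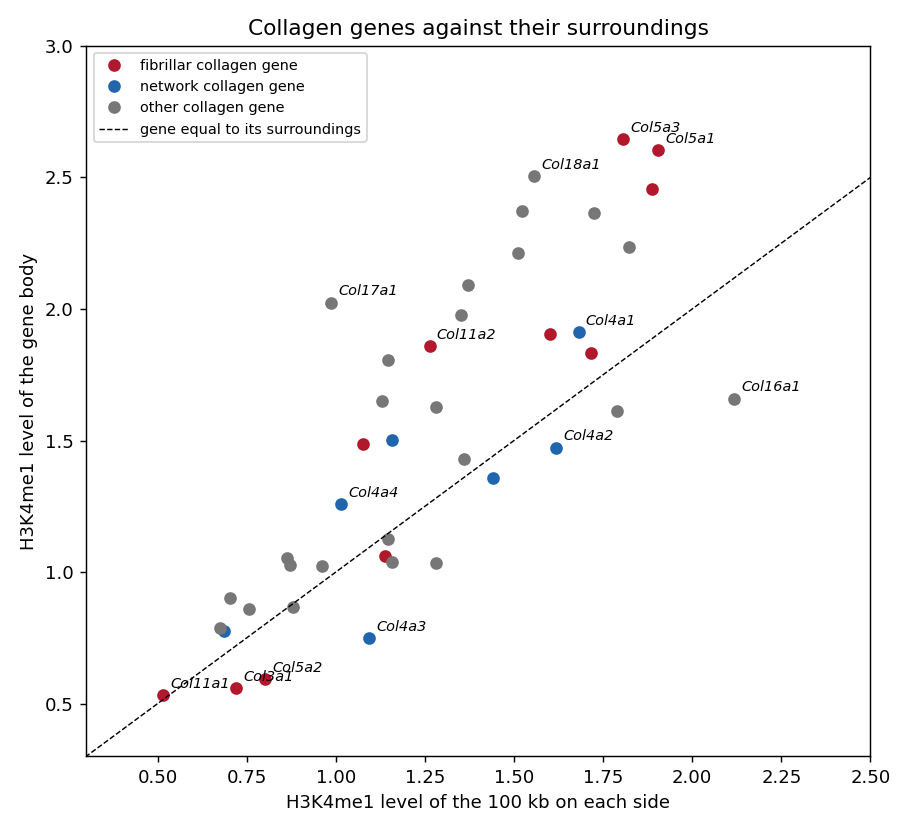
H3K4me1 level of each collagen gene body (y axis) against that of the 100 kb on each side outside it (x axis), coloured by class; the dashed line marks equal levels. Of 42 genes, 30 lie above the line, with Col17a1 far above it and Col4a3 and Col16a1 below it.

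Collagen genes in gene-dense places tended to have higher levels. Density was counted between gene centres, which reaches less far past the ends of a long gene. The level and the number of other protein-coding genes within 500 kb had a Spearman rho of 0.618 and a Pearson r of 0.508 over the 42 genes, beside 0.225 and 0.195 over the other genes. With gene length the values were -0.369 and -0.373, beside 0.069 and -0.0753. With the number of CG in the promoter they were 0.363 and 0.322 over 33 genes, beside 0.251 and 0.181. These are descriptions over genes of 1 pool. Windows of 15 collagen genes also overlap the window, with 2.5 kb on each side, of another autosomal protein-coding gene that is no collagen gene. Windows of 6 overlap that of another member, with Col4a2, Col4a3 and Col4a4 in both groups, and 24 overlap none. Fragments where windows overlap cannot be assigned to either gene, and non-coding genes were not looked at.

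Bins of 10 kb at fixed chromosome positions were compared, and bins at the ends of a gene reach outside it. Such bins hold too few fragments to resolve narrow peaks. Of the 24 members that cover at least 10 bins of 10 kb, 6 were above the mean in every bin, namely Col5a1 (16 bins), Col18a1 (12), Col4a1 (13), Col26a1 (15), Col27a1 (13) and Col15a1 (12). Among all 2804 autosomal genes of that size, 3.14% were so. The median share of bins above the mean was nevertheless 52.8% in the 24 collagen genes and 56.3% over all genes of that size. In steps of 10 kb from the start site, Col18a1 had 1 fragment in its first step, a level of 0.178 (0.0045 to 0.991). Col4a1 had a step at 0.890 inside the gene, while Col5a1 and Col27a1 stayed above the mean in each step inside the gene. Col15a1 and Col26a1 were not cut in this way. Bins of Col5a1 ran from 1.60 to 4.09 times the mean. In Col11a1, by contrast, 2 of 20 bins exceeded 1 and 3 were empty, where 3 fragments would have given 0.534, and in Col5a2 1 of 14 exceeded 1. Enriched bins, with 3 times the mean or more and at least 20 fragments from at least 5 libraries, numbered 8 of 535 collagen bins (1.50%) in 5 genes, beside 0.746% of bins over other protein-coding genes. Col5a1, Col18a1 and Col23a1 held 2 each and Col9a3 and Col27a1 1 each, and no collagen bin was over 10 times the mean. The enriched bin of Col9a3, chr2:180590001-180600000 with 26 fragments, lies mostly outside the gene, which runs from 180598102. The next bin of Col9a3, from 180600001, stood at 2.85 from 16 fragments and was not enriched. No more than 6 fragments of 1 library lay over any base of a member. This largest number was 6 in Col22a1, Col23a1 and Col27a1 and at most 4 in the other members. Whether copies of 1 molecule remain among the fragments was not tested. The median collagen fragment was 313 bp long, beside 322 bp over the autosomes.

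**Figure D4:**
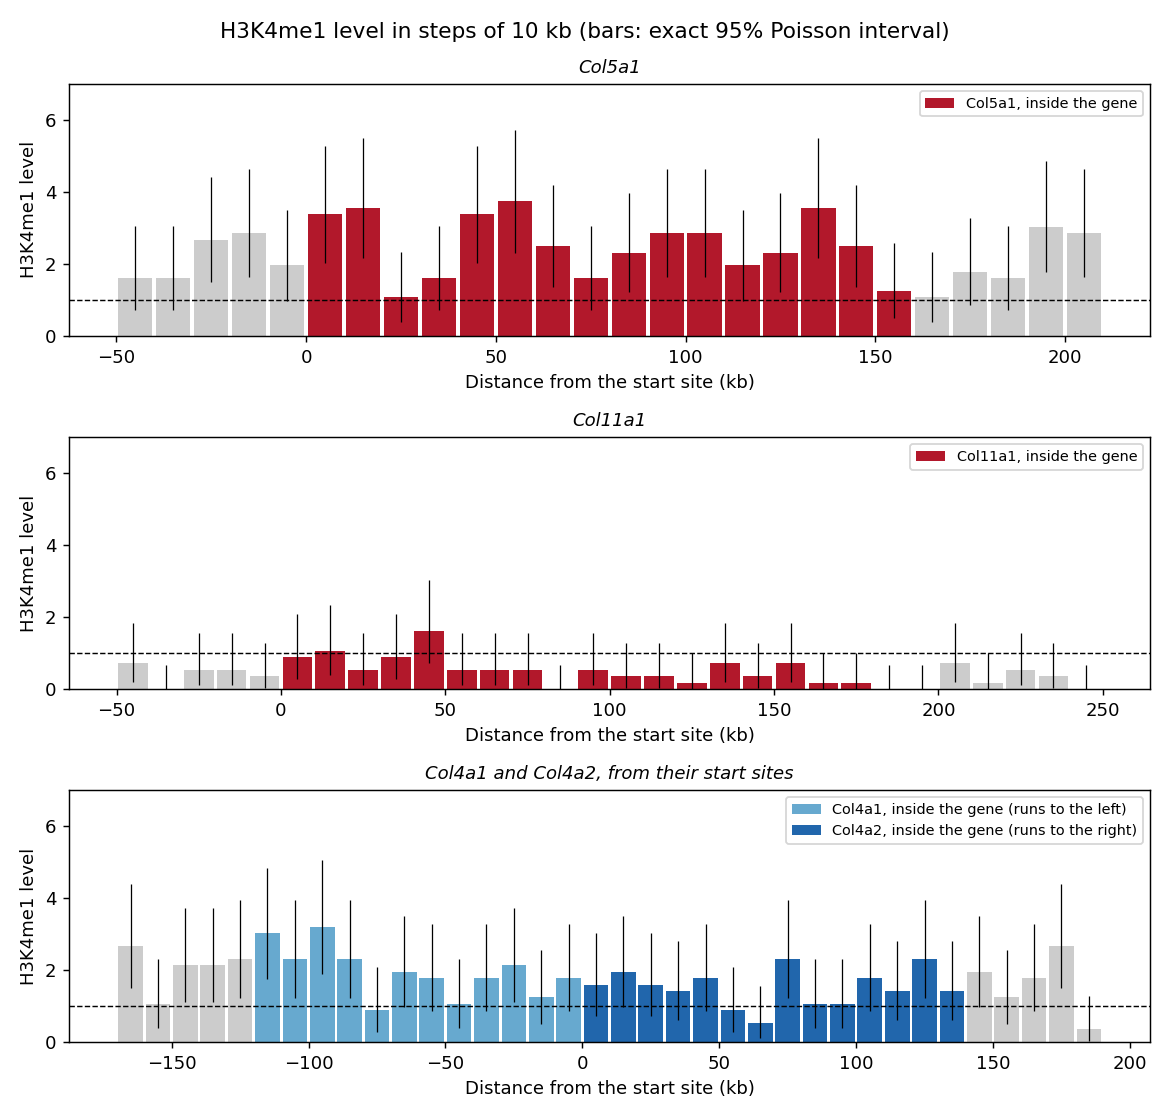
H3K4me1 level (y axis, over the autosomal mean) in steps of 10 kb from the start site (x axis) of Col5a1, Col11a1 and the pair Col4a1 and Col4a2, with exact 95% Poisson intervals; coloured bars lie inside the gene, grey bars outside it, and the dashed line is the mean. Col5a1 and Col4a1 stay near or above the line along the whole gene, and Col11a1 lies mostly below it.

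Along the gene, the intervals of the 33 members with a known strand overlapped between all 5 stretches compared. Their summed level was 1.47 (1.14 to 1.86) in the 2.5 kb before the gene, then 1.42 (1.33 to 1.51), 1.32 (1.24 to 1.41) and 1.42 (1.34 to 1.52) in the first, middle and last of 3 equal parts, and 1.47 (1.14 to 1.86) in the 2.5 kb after it. Over the 11714 other autosomal protein-coding genes in this comparison, the same 5 values rose from 1.09 before the gene through 1.15, 1.16 and 1.20 to 1.36 after it. The first part exceeded the last in 17 of 33 members. In the 8 fibrillar genes with a known strand the first part stood at 1.70 (1.51 to 1.92), the middle at 1.38 (1.20 to 1.57) and the last at 1.46 (1.28 to 1.66), with overlapping intervals. The other classes had the opposite order of first and last part, also with overlapping intervals. The 6 network genes gave 1.41 (1.20 to 1.66) and 1.51 (1.28 to 1.77), and the 19 other collagen genes 1.32 (1.21 to 1.43) and 1.39 (1.28 to 1.51). Within 1 kb of the start the 33 genes held 47 fragments, a level of 1.27 (0.930 to 1.68), beside 1.09 (1.07 to 1.10) over all other promoters. At 8 of the 33 starts (24.2%), beside 36.4% of all other starts, there were 0 fragments, where 3 in 1 gene would have given 2.67, so that single promoters could not be read at this depth.

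The promoters were also searched on both strands for 3 motifs. TATAAA, the core of the TATA box, was found in 5 of 33 collagen promoters (15.2%), Col3a1 and Col10a1 among them, beside 13.5% of all other promoters. GGGCGG, the GC box, was found in 20 (60.6%), beside 47.3%, and CCAAT in 11 (33.3%), beside 39.1%. None of the 3 motifs contains another, and a match describes letters in the window, not a bound factor.

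Genes that make, process and bind collagen were called above the mean as often as like genes. Of 60 such genes in 8 roles, 23 were above, 2 below and 35 neither, beside 23.0 and 5.81 by the shares of like genes, and their median was 1.31. The counts above by role are given beside the count that the shares of like genes give. They were 4 of 8 beside 3.71 for propeptide cleavage, the cutting that lets fibrils form, 2 of 12 beside 4.14 for the hydroxylation of prolines and lysines, and 0 of 2 beside 0.747 for glycosylation. For chaperone and export the count was 1 of 3 beside 0.700, for receptors 4 of 9 beside 3.93, and for degradation 2 of 6 beside 1.84, and none of these 6 roles had a gene below. Crosslinking enzymes counted 2 of 5 above beside 1.81, and the partners of collagen in basement membranes 8 of 15 beside 6.08, with 1 gene below in each.

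The highest of these genes with at least 10 expected fragments were Lamc3, a laminin chain, at 3.36 (2.80 to 4.00), Hspg2, the perlecan gene, at 2.91 (2.498 to 3.38), and Loxl4, a crosslinking oxidase, at 2.58 (1.82 to 3.55). The lowest were Loxl2, another crosslinking oxidase, at 0.290 (0.162 to 0.478), P4ha3, a prolyl hydroxylase subunit, at 0.590 (0.314 to 1.01), and Lama2, the laminin chain of muscle, at 0.802 (0.712 to 0.900). Loxl2, below each of the 42 collagen genes, and Lamc3, above each of them, put the range of these 60 genes on both sides of that of the collagen genes.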

How the data were processed

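The deposited table lists 1 H3K4me1 fragment per line with its ends and library, and each of its 1424363 lines carries a count of 1, which makes the count of a region its number of lines. The build is mm10, per the submitters' processing notes. For the aligner, duplicate removal and filters, the step is not given in the sources used here. Without molecular identifiers, intervals cover counting error only.

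Kept libraries reached 5000 fragments over the autosomes and both sex chromosomes. Fragments were placed by midpoint, and chromosome lengths run from the first to the last fragment. Gene positions, names and promoters came from RefSeq GRCm38.p6, the assembly of mm10. Like genes share 1 of 50 cells of length and local density, the smallest with 44 genes. Local density is the number of other protein-coding genes with their centre within 500 kb of the centre of the gene. The members, classes and lists were chosen with earlier results of these data known. Named with full values are the 3 highest and 3 lowest genes of each class and members whose windows overlap another; of the collagen pathway genes, the 3 highest and 3 lowest with at least 10 expected fragments. Protein repeats, which the plan named, were not analysed here.

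Alternatives were other flanks, fragment placing, library minimum and weights, each library left out, very high bins left out, merged neighbours and other length and density groups. Pools of libraries named 4 or 5 and intervals against the median gene were chosen after seeing the data. The levels were tested on simulated data. Python 3.11.15, numpy 2.4.6, pandas 2.3.3, scipy 1.17.1 and matplotlib 3.10.9 were used.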

Additional observations from a re-analysis of the deposited data

How the results depend on the processing

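Across 28 alternatives, 195 values were recomputed. Of these, 184 stayed within the interval of the reported value or, for counts, within 1.5 times of it, and 11 moved beyond. For the medians this interval is wide, being the outer Poisson limits of the middle genes (level 1.02 to 2.07, ratio to like genes 0.736 to 1.78). The summed levels and the median level changed direction in 0 cases. The counts and the median ratio could not be scored for direction, and the order of the classes was not scored. The 28 alternatives are not independent. The pool of libraries with at least 20000 fragments is the same as the pool without 5-11, so that its values were counted again. Pools that left out 1 library share most of their fragments with the main pool. In libraries named 4 alone the network genes stood at 1.53, the other collagen genes at 1.27, and 9 genes were above the mean; these 3 libraries are fewer, so that intervals are wider. Against the median gene, 10 genes were below. With 1 library left out, the number of genes below the mean ran from 2 to 5 (2 without 5-2 or 5-3, and 3 without 5-1, 5-4, 5-5, 5-7 or 5-10) and the number above from 21 to 24. The summed level ran from 1.33 to 1.36, the fibrillar sum from 1.39 to 1.44, the network sum from 1.18 to 1.27, the other sum from 1.32 to 1.36, the median from 1.45 to 1.56 and the median ratio to like genes from 1.13 to 1.19. Counts were not made with equal library weights, which give no Poisson interval. No paired analysis was possible because the table pools both batches and no label ties a library to a batch. Depth limits single promoters and genes under about 20 kb in single libraries, where a few fragments set the level.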
